A study of Mus musculus with 16 samples.

Results

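A set of 9 genes of glucocorticoid and corticotropin-releasing hormone (CRH) signalling was followed in medial prefrontal cortex (mPFC) from adult mice with or without an Arid1b mutation. They were taken by symbol and matched to the Ensembl identifiers of the deposited table, and all 9 were found among its 18424 genes. They are the corticosteroid receptors Nr3c1 and Nr3c2, the receptor-induced genes Sgk1, Tsc22d3, Fkbp5 and Zbtb16, the CRH receptor Crhr1, the CRH-binding protein Crhbp and Hsd11b1, which turns inert keto glucocorticoids back into active hormone. The mPFC was sampled from 16 male C57BL/6N mice at postnatal day 120, 4 in each of 4 groups. WT-Veh and WT-Flx mice were wild type, and HT-Veh and HT-Flx mice carried a heterozygous, constitutive CRISPR/Cas9 deletion of Arid1b exon 5 from a single mutant line. The Flx pups were nursed from day 3 to day 21 by dams that drank fluoxetine hydrochloride, a serotonin reuptake inhibitor, at 0.1 mg/ml, sweetened with 0.2% saccharin, and the Veh dams drank only the 0.2% saccharin water. All pups were then weaned to plain water. Which mice shared a litter is not given in the sources used here, so the p-values below measure the spread between mice and treat littermates, if any, as independent.

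In the brain, corticosterone enters cells freely and binds Nr3c2 (the mineralocorticoid receptor) with high affinity and Nr3c1 (the glucocorticoid receptor) with lower affinity, so that Nr3c1 is filled mainly at the daily peak and in stress. The bound receptors move to the nucleus and, often as dimers on a palindromic DNA element, raise a small set of genes that report hormone exposure within hours. Fkbp5, a co-chaperone, lowers the affinity of Nr3c1 for the hormone and so closes a negative feedback loop. CRH acts upstream in the stress axis and, through Crhr1, also locally in the cortex.

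Of the receptor-induced genes, Sgk1 and Tsc22d3 are shown with a promoter window, where a receptor element can be read directly. They are the ones in which the hexamer described next was found. RefSeq start-site windows of 300 bases on GRCm38.p6 (250 before the start and 50 after it) were held for 7 of the 9 genes, with 14 windows in all, and were searched on both strands for the hexamer AGAACA or its reverse complement TGTTCT, the arms of the receptor's palindromic element. A hexamer was in 4 of the 14 windows, and in 19.0% of all 32851 windows. AGAACA followed, after 3 bases, by TGTTCT was in only 3 of the 32851 windows. Of these 3, 1 is among the 6 start-site windows of Sgk1, a kinase that regulates sodium channels and neuronal excitability. It spans chr10:21993640-21993939 on the plus strand, and the palindrome lies at chr10:21993701-21993715, beginning 189 bases upstream of the start. The other window shown is the upstream one of Tsc22d3 (also called GILZ, a leucine zipper protein that restrains inflammatory transcription), at chrX:140600473-140600772 on the minus strand, with a single hexamer beginning 185 bases upstream. Capitals mark the hexamers.
Sgk1: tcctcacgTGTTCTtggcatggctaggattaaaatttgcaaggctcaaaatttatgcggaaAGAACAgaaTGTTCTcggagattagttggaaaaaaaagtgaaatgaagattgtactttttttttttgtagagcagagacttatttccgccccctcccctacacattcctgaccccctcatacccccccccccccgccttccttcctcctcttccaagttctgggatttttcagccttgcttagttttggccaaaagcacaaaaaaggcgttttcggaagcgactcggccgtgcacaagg
Tsc22d3: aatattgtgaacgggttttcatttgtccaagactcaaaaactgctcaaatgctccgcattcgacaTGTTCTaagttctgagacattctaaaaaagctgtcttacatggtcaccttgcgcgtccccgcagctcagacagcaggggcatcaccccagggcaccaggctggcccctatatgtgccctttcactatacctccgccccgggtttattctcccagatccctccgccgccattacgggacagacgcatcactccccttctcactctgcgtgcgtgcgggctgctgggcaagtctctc
The windows of Fkbp5, Crhr1, Crhbp, Hsd11b1 and Nr3c2 held neither hexamer, and there was no window for Nr3c1 or Zbtb16. A match here describes the letters of the window, and says nothing of binding in these mice.

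The deposited values are normalized read counts, and their sums over all genes were within 92.8% to 104% of the mean of the 16 mice. Read depth is unknown from these values. Arid1b, the check of the genotype labels, was at 1715 ± 141 (SD, n = 8) in the HT mice and 2264 ± 340 (n = 8) in the WT mice, a log2 difference of -0.39 (exact permutation test within treatments, two-sided, p = 0.00122), although the ranges of 1545 to 2005 and 1787 to 2831 overlapped. Of the 8 olfactory bulb markers, all were in the table and only Eomes was at 0 in a mouse (HT-Flx replicate 3). The mean log2 level of these 8 genes (the bulb score) was between 3.98 and 4.99 in 11 mice, and stood at 9.71 in WT-Veh replicate 1, 7.27, 7.98 and 9.29 in WT-Flx replicates 1, 2 and 4, and 8.0 in HT-Veh replicate 4. Summed over the 8 markers, the normalized counts ran from 239.3 to 375.9 in HT-Flx, 280.2 to 3024 in HT-Veh, 407.2 to 7737 in WT-Flx and 255.6 to 10220 in WT-Veh. These 5 mice are called bulb-rich below. HT-Flx replicate 2 also stood apart, with 3729 counts of the activity-regulated gene Fosb, against 240 to 472 in the other mice.

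All 9 genes were well above the filter on low values in every mouse, and levels between genes were compared per kilobase of annotated exon (GENCODE vM21). Sgk1 had the highest mean at 407 ± 107 normalized counts per kb (SD over 16 mice), followed by Nr3c1 at 403 ± 61.9 and Tsc22d3 at 383 ± 82.0. These 3 ranged over 245 to 583, 257 to 465 and 240 to 560, so their order was not separated. Crhr1 (268 ± 48.4), Zbtb16 (218 ± 71.9), Crhbp (204 ± 31.3) and Nr3c2 (164 ± 11.6) came next, with overlapping ranges between neighbours. Fkbp5 (83.0 ± 18.2) and Hsd11b1 (70.5 ± 12.1) were lowest and did not separate from each other, but the highest value of either, 118 for Fkbp5, was below the lowest of Nr3c2, 146. Per kilobase, the ratio of Nr3c2 to Nr3c1 was 0.356 ± 0.0265 in HT-Flx, 0.408 ± 0.0259 in HT-Veh, 0.473 ± 0.0796 in WT-Flx and 0.433 ± 0.126 in WT-Veh (SD, n = 4). The 3 highest ratios, 0.62, 0.587 and 0.467, were all in bulb-rich mice. In these bulk samples, fewer cells of a type and less RNA per cell cannot be told apart.

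**Figure D1:**
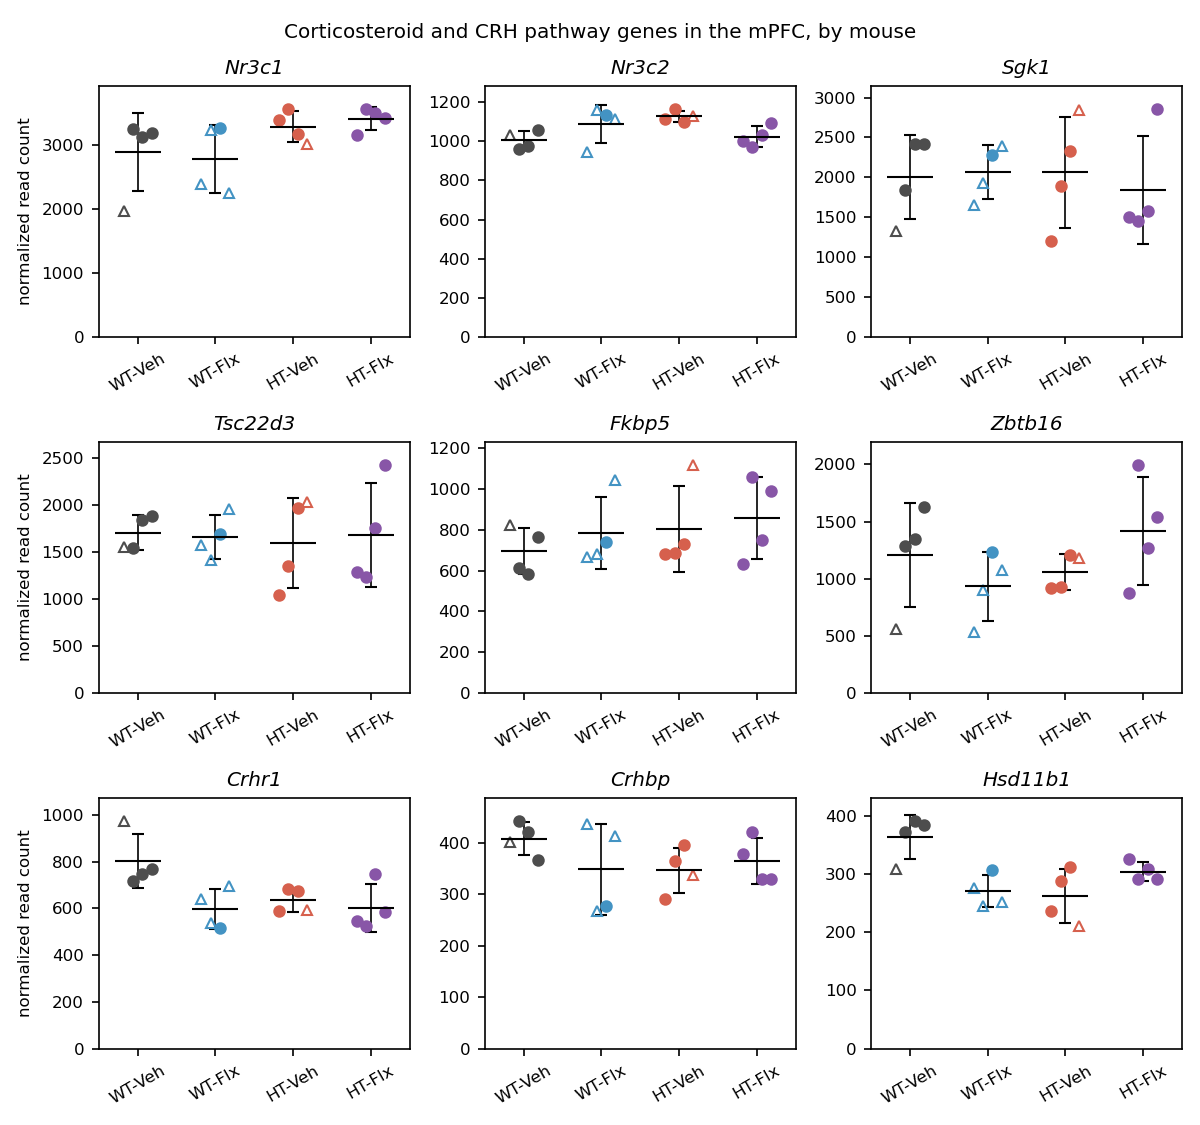
Normalized read counts (y axis, from 0) of the 9 genes in each of the 16 mice by group (x axis), with the group mean as a line and the SD as an error bar. Open triangles are the 5 bulb-rich mice, which hold the 3 lowest Nr3c1 values, and in Crhr1 and Hsd11b1 the WT-Veh mean is the highest of the 4.

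The effect of the mutation in vehicle-reared mice was asked first. Relative to WT-Veh, HT-Veh mice had lower Hsd11b1, lower Crhr1 and slightly higher Nr3c2, but no gene of the 9 passed the adjusted threshold of 0.05 in limma. Hsd11b1 (chr1:193221634-193264075, minus strand, GRCm38), the enzyme that regenerates active corticosterone inside cells, was at 308, 372, 391 and 383 normalized counts in the 4 WT-Veh mice and at 237, 288, 311 and 210 in the 4 HT-Veh mice. Only the highest HT-Veh mouse reached the WT-Veh range. The log2 difference was -0.48 (SE 0.14, limma p = 0.00656, adjusted p = 0.872; exact permutation p = 0.0571).

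Crhr1 (chr11:104132855-104175523, plus strand), the G protein-coupled receptor that CRH activates on cortical pyramidal neurons, was at 974, 718, 747 and 769 counts in WT-Veh and 588, 683, 673 and 595 in HT-Veh. The groups did not overlap. The difference was -0.33 on the log2 scale (SE 0.11, limma p = 0.0126, adjusted p = 0.922; exact permutation p = 0.0286, the smallest that 4 against 4 mice allow). Nr3c2 (chr8:76899442-77245012, plus strand) was at 1033, 959, 974 and 1059 counts in WT-Veh and 1117, 1167, 1099 and 1131 in HT-Veh, again without overlap, and differed by 0.17 (SE 0.066, limma p = 0.0299, adjusted p = 0.922; exact permutation p = 0.0286). Non-overlap held for 3.84% of the 16832 genes tested, an unadjusted p under 0.05 for 4.88%, and an adjusted p under 0.05 for 0.0178%. Of the 9 genes, 2 did not overlap, 3 had such an unadjusted p and 0 passed the adjusted threshold. The other 6 genes differed by -0.24 (Crhbp) to 0.21 (Nr3c1), with unadjusted p-values of 0.0615 and above. With the 2 bulb-rich mice of this pair of groups left out, the Crhr1 difference was -0.20 and that of Hsd11b1 -0.46.

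Fluoxetine in wild-type pups was compared against the same 4 WT-Veh mice, so this comparison and the one above share their control values. Crhr1 and Hsd11b1 were again below WT-Veh. In WT-Flx, Crhr1 was at 638, 538, 517 and 695 counts, all below the lowest WT-Veh mouse at 718, with a log2 difference of -0.43 (SE 0.13, limma p = 0.00936, adjusted p = 0.9997; exact permutation p = 0.0286). Hsd11b1 was at 275, 245, 306 and 252 counts in WT-Flx, all below the lowest WT-Veh mouse at 308, with the same log2 difference of -0.43 (SE 0.12, limma p = 0.00587, adjusted p = 0.9997; exact permutation p = 0.0286). For both genes the gap between the groups was narrow, since the nearest mice differed by few counts. Non-overlap was seen for 2 of the 9 genes and 2.89% of all 16833 tested, an unadjusted p under 0.05 for 2 of the 9 and 4.2% of all, and an adjusted p under 0.05 for 0 of the 9 and 0% of all genes (707 genes had an unadjusted p under 0.05). The other 7 genes differed by -0.33 (Zbtb16) to 0.16 (Fkbp5). Each of the 8 bulb markers had a higher mean log2 level in WT-Flx (median difference 1.4), though 0 of the 8 had an unadjusted p under 0.05. With the bulb score as a covariate the differences were -0.55 for Crhr1 and -0.33 for Hsd11b1. The WT-Veh mouse with the most Crhr1, replicate 1, had the highest bulb score, and without it Crhr1 differed by -0.33 between these groups and by -0.23 between the vehicle groups.

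Fluoxetine in mutant pups, HT-Flx against HT-Veh, gave no gene of the 9 at an unadjusted p under 0.05. Nr3c2 came nearest. It was at 1003, 969, 1035 and 1094 counts in HT-Flx, just under the HT-Veh mice at 1099 to 1167. Its log2 difference was -0.14 (SE 0.07, limma p = 0.0698, adjusted p = 1.0; exact permutation p = 0.0286). Hsd11b1 was at 325, 292, 308 and 291 counts in HT-Flx, inside a narrow range that overlapped the top of HT-Veh, and differed by 0.23 (limma adjusted p = 1.0). Crhr1 was at 547, 525, 748 and 585 counts in HT-Flx, and its range covered that of HT-Veh. Nr3c2 was the only gene of the 9 without overlap, against 1.99% of the 16814 genes tested. By limma, 3.07% of all genes (516) had an unadjusted p under 0.05 and 0% an adjusted p under 0.05. Changes of the 9 genes ran from -0.15 (Sgk1) to 0.37 (Zbtb16).

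**Figure D2:**
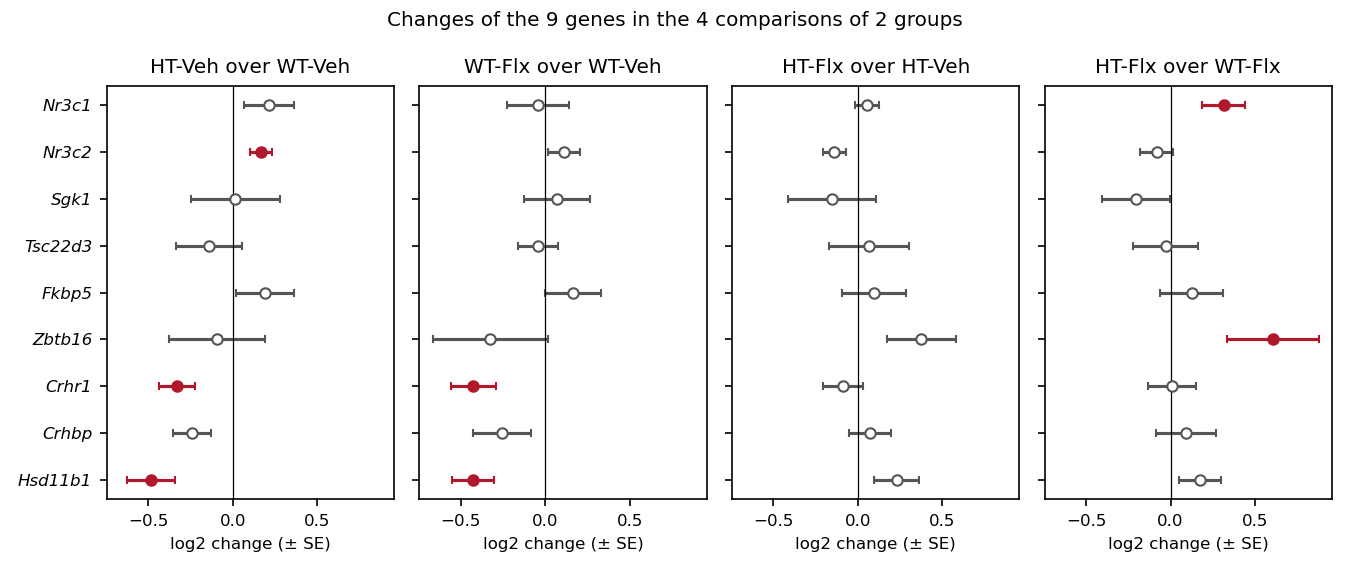
Log2 differences (x axis) of the 9 genes (y axis) in the 4 comparisons of 2 groups, with the SE from limma as error bars and filled red points where the unadjusted p was under 0.05. Red points are Nr3c2, Crhr1 and Hsd11b1 in HT-Veh over WT-Veh, Crhr1 and Hsd11b1 in WT-Flx over WT-Veh, none in HT-Flx over HT-Veh, and Nr3c1 and Zbtb16 in HT-Flx over WT-Flx. No gene had an adjusted p under 0.05 in any panel.

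Between the fluoxetine-reared genotypes, HT-Flx against WT-Flx, the 2 genes with an unadjusted p under 0.05 were Nr3c1 and Zbtb16, a zinc finger repressor (PLZF) that glucocorticoids induce in many cell types. Nr3c1 was at 3161, 3575, 3511 and 3436 counts in HT-Flx and at 2399, 3235, 3269 and 2249 in WT-Flx. The difference was 0.31 (SE 0.13, limma p = 0.0294, adjusted p = 0.431; exact permutation p = 0.0857), and the lowest WT-Flx mice, replicates 1 and 4, were both bulb-rich. Zbtb16 was at 872, 1997, 1272 and 1541 counts in HT-Flx and at 530, 901, 1232 and 1074 in WT-Flx. Its difference was 0.61 (SE 0.27, limma p = 0.0447, adjusted p = 0.465; exact permutation p = 0.171). The vehicle-reared mice were at 555, 1290, 1343 and 1627 (WT-Veh) and 921, 923, 1207 and 1177 (HT-Veh), with the lowest WT-Veh value in its bulb-rich mouse. The highest of the 16 values belonged to HT-Flx replicate 2, the mouse with high Fosb, and without WT-Flx replicate 1 the difference was 0.36, and without the bulb-rich mice, which leaves only replicate 3 in WT-Flx, it was 0.14. None of the 9 genes separated the groups without overlap, against 5.83% of the 16788 genes tested. An unadjusted p under 0.05 was seen for 10.4% of all genes and an adjusted one for 0.0417%. The other 7 genes differed by -0.21 (Sgk1) to 0.18 (Hsd11b1). The bulb markers moved with this comparison as well: all 7 that were tested were lower in HT-Flx at an unadjusted p under 0.05 (median difference -2.64) and 0 passed the adjusted threshold. Over the 9 genes, the median log2 difference was -0.094 in HT-Veh against WT-Veh, -0.045 in WT-Flx against WT-Veh, 0.067 in HT-Flx against HT-Veh and 0.091 in HT-Flx against WT-Flx, and over all genes tested it lay between -0.00091 and 0.0081.

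Nr3c1 was lowest in bulb-rich mice. The 3 lowest of the 16 values, 1978 in WT-Veh replicate 1, 2249 in WT-Flx replicate 4 and 2399 in WT-Flx replicate 1, were in bulb-rich mice, among them the mice with the 2 highest scores. The other bulb-rich mice were at 3235 (WT-Flx replicate 2) and 3026 (HT-Veh replicate 4), and the 11 remaining mice at 3132 to 3575. As the scores fall into separate clusters, no correlation over all mice is given, and within the 11 mice r was -0.24 with group means removed. Taken over both treatments, Nr3c1 was at 3358 ± 209 in the 8 HT mice and 2840 ± 536 in the 8 WT mice, a log2 difference of 0.26 (limma p = 0.0180, adjusted p = 0.387; exact permutation within treatments, p = 0.0233). It was the only gene of the 9 with an unadjusted p under 0.05 for genotype, against 11.9% of the 17567 genes tested, and 0.0398% of all genes passed the adjusted threshold. With the bulb score as a covariate the genotype difference in Nr3c1 was 0.11 over both treatments and 0.035 in the fluoxetine-reared mice, and without the bulb-rich mice it was 0.075 and 0.064 (WT-Flx then has 1 mouse, assumed to vary like the other group). In WT-Veh and in HT-Veh, the bulb-rich mouse also had the lowest Hsd11b1 of its group, at 308 and 210 counts. In WT-Flx, the bulb-rich mice were at 275, 245 and 252, all below the remaining mouse at 306. Hsd11b1 was at 258 ± 36.4 in the 5 bulb-rich mice and 318 ± 46.6 in the 11 others. How far the bulb-rich mice account for the Nr3c1 and Hsd11b1 differences was not tested beyond the values given.

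**Figure D3:**
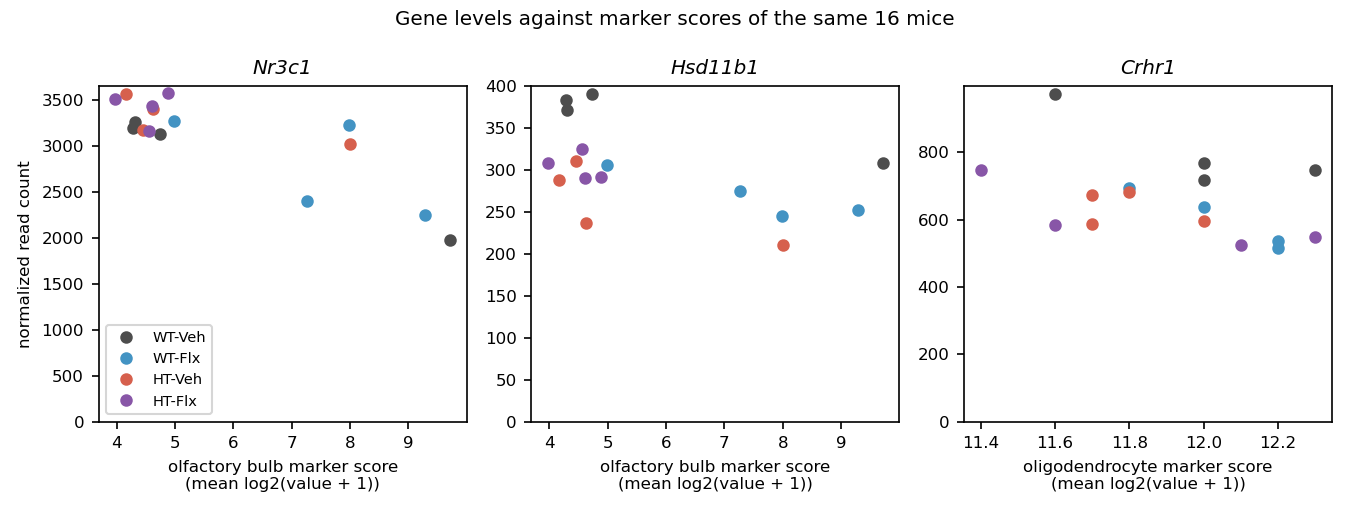
Normalized read counts (y axes, from 0) of Nr3c1 and Hsd11b1 against the olfactory bulb marker score and of Crhr1 against the oligodendrocyte marker score (x axes, mean log2(value + 1) of the 8 markers), 1 point for each of the 16 mice, coloured by group. The 3 lowest Nr3c1 points, at 1978 to 2399, are at scores of 7.27 and above.

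Whether fluoxetine acted differently in the genotypes was asked with the interaction term. For Hsd11b1 the fluoxetine difference was -0.43 in WT and 0.23 in HT mice, an interaction of 0.66 (SE 0.18, limma adjusted p = 0.998). For Nr3c2 it was 0.11 in WT and -0.14 in HT mice, an interaction of -0.25 (SE 0.11, limma adjusted p = 0.998), with the WT-Flx mice at 944, 1159, 1136 and 1113 counts. The 4 group means of Hsd11b1 were 364 ± 37.7 in WT-Veh, 262 ± 46.0 in HT-Veh, 270 ± 27.4 in WT-Flx and 304 ± 16.2 in HT-Flx. The WT-Veh mean lay above the 3 others, while the ranges of HT-Veh and HT-Flx each overlapped that of WT-Veh. Unadjusted p-values under 0.05 for the interaction were found for 2 of the 9 genes and 4.29% of 17567, and adjusted ones for 0 and 0% (754 genes had an unadjusted p under 0.05 in limma). Without the bulb-rich mice the interaction was 0.45 for Hsd11b1 and -0.33 for Nr3c2. Over both genotypes, Crhr1 was at 599 ± 85.9 in 8 Flx mice and 718 ± 122 in 8 Veh mice. The fluoxetine difference on the log2 scale was -0.43 in WT and -0.089 in HT mice (limma adjusted p = 1.0 for HT), an interaction of 0.34 (SE 0.18, limma adjusted p = 0.998). The log2 difference over both genotypes was -0.26 (limma p = 0.0162, adjusted p = 0.9997; exact permutation within genotypes, p = 0.0249), and Crhr1 was the only gene of the 9 with an unadjusted p under 0.05, against 3.11% of all genes. At the adjusted threshold the limma count was 0% of genes, with 546 at an unadjusted p under 0.05.

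The receptor-induced genes varied widely between the mice of each group. Sgk1 was at 1326, 1844, 2423 and 2415 counts in WT-Veh, 1199, 1888, 2327 and 2842 in HT-Veh, 1650, 1931, 2276 and 2391 in WT-Flx and 1501, 1446, 1576 and 2859 in HT-Flx. The ranges of all 4 groups overlapped, and the group means lay between 1845 and 2064. Tsc22d3 was at 1551, 1542, 1846 and 1888 counts in WT-Veh, 1042, 1356, 1967 and 2030 in HT-Veh, 1571, 1411, 1693 and 1961 in WT-Flx and 1290, 1235, 1756 and 2430 in HT-Flx. Its group means lay between 1599 and 1707. Fkbp5 ranged from 583 to 1119 counts over the 16 mice with group means of 696 ± 115 (WT-Veh), 804 ± 211 (HT-Veh), 784 ± 177 (WT-Flx) and 858 ± 201 (HT-Flx). No difference in Sgk1, Tsc22d3 or Fkbp5 had an unadjusted p under 0.05 in limma in any of the 7 comparisons. These fits hold no term for the replicate number that mice of different groups share, with which Sgk1 and Tsc22d3 went (below).

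Sgk1 and Tsc22d3 moved together from mouse to mouse. After the group means were removed, their log2 levels correlated over the 16 mice with Pearson's r = 0.877 (permutation p = 0.00014, adjusted p = 0.00504 over the 36 pairs of the 9 genes) and Spearman's rho = 0.797 (permutation p = 0.00059, adjusted p = 0.0212). Without the 2 mice farthest from the median of Tsc22d3, r was 0.686, and in the 11 mice that were not bulb-rich it was 0.931. Both genes also went with the replicate number that mice of different groups share. The mean log2 deviations from the group means were -0.452, -0.126, 0.138 and 0.441 for Sgk1 and -0.272, -0.234, 0.158 and 0.348 for Tsc22d3 in the mice numbered 1, 2, 3 and 4. With the means of the numbers removed as well, r was 0.626. The permutations treat the mice of a group as exchangeable and take no account of the number. A second pair with an adjusted p under 0.05 was Nr3c2 and Crhbp, with r = -0.711 (permutation p = 0.00258, adjusted p = 0.0464), rho = -0.691 (permutation p = 0.00669, adjusted p = 0.12) and r = -0.544 without the 2 mice farthest from the median of Crhbp, and with the means of the numbers removed r was -0.779. Crhbp, the secreted protein that sequesters CRH, was at 408 ± 32.0 counts in WT-Veh, 347 ± 43.9 in HT-Veh, 349 ± 88.2 in WT-Flx and 365 ± 43.9 in HT-Flx. In WT-Flx it was at 437 and 413 in 2 mice and at 268 and 278 in the others.

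**Figure D4:**
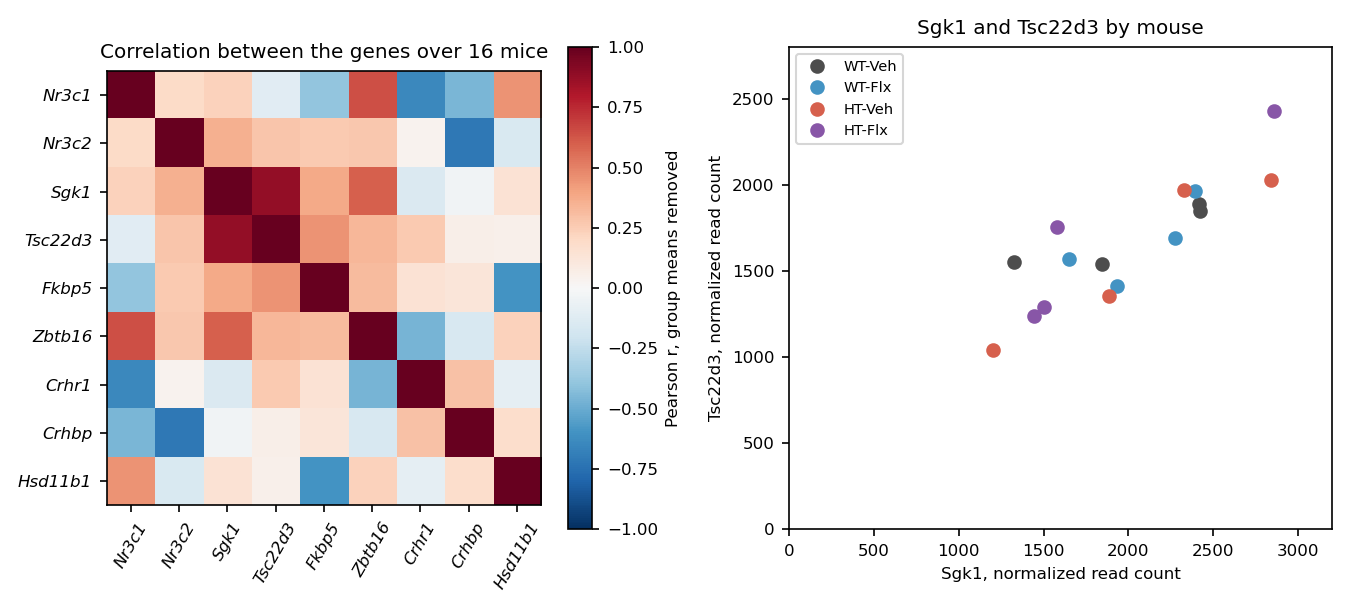
Left, Pearson's r between the 9 genes over 16 mice after removing group means (colour scale from -1 to 1). Right, normalized read counts of Tsc22d3 (y axis) against Sgk1 (x axis) for each mouse by group (r = 0.877 with group means removed). In HT-Flx, replicate 4 lies at an Sgk1 of 2859 and the others at 1446 to 1576.

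Crhr1 also varied with some marker scores, though no relation with an adjusted p-value was under 0.05. Of the 9 genes it had the strongest relation to the bulb score within the 11 mice that were not bulb-rich, r = -0.829 with group means removed, against -0.428 to 0.276 for the other 8 genes. These scores spanned only 3.98 to 4.99, WT-Flx is present by replicate 3 alone, and no p-value is given. The bulb-rich mice did not extend this relation: Crhr1 was at 688 ± 170 in them and 645 ± 95.5 in the 11 others. Among 36 relations of the 9 genes with striatal, oligodendrocyte, endothelial and activity gene scores, the largest was that of Crhr1 with the oligodendrocyte score, r = -0.813 with group means removed (permutation p = 0.00158, adjusted p = 0.0569), rho = -0.771 (permutation p = 0.00412, adjusted p = 0.148) and r = -0.569 without the 2 mice farthest from the median score. With the striatal score, Crhr1 had r = -0.666 (permutation p = 0.00852, adjusted p = 0.153), rho = -0.547 (permutation p = 0.0446, adjusted p = 0.535), r = -0.602 without the 2 mice farthest from the median score and r = -0.816 in the 11 mice. The summed counts of the 8 oligodendrocyte markers, none of them at 0 in any mouse, ran from 63410 to 110700 in WT-Veh, 70190 to 98530 in HT-Veh, 88790 to 105000 in WT-Flx and 63190 to 112400 in HT-Flx. With the oligodendrocyte score as a covariate the Crhr1 difference was -0.34 in WT-Flx against WT-Veh and -0.40 in HT-Veh against WT-Veh, and with the striatal score it was -0.35 and -0.31. The part of these scores in the Crhr1 values was not tested further. Relations were not particular to Crhr1. With the endothelial score, Hsd11b1 had r = 0.61 (permutation p = 0.016, adjusted p = 0.192) and 0.443 in the 11 mice. Fkbp5 had r = -0.628 with that score (permutation p = 0.0465, adjusted p = 0.418) and -0.777 in the 11 mice.

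For each gene, the 3 genes most like it over the 16 mice, by r of log2 levels after removing group means, were listed among 17567 as a description. Nr3c1 was most like Kctd16 (0.986), Fam168a (0.977) and Camk1d (0.973), and in the 11 mice that were not bulb-rich these were at 0.881, 0.571 and 0.622. Tsc22d3 was most like Xdh (0.932), Zfp35 (0.923) and Sbk1 (0.903), which kept 0.973, 0.959 and 0.934 in the 11 mice. Sgk1 was most like Gm19439 (0.922), Mtrr (0.893) and Plekhf1 (0.88), Fkbp5 most like Rhbdl3 (0.907), Plat (0.871) and Amigo2 (0.87), and Zbtb16 most like Spred2 (0.968), Nin (0.96) and Spred1 (0.952). For Nr3c2 they were Smarcad1 (0.917), Dennd1b (0.887) and Gm14444 (0.869), and for Crhr1 they were Lsm2 (0.869), Lag3 (0.866) and Camk1 (0.859). For Crhbp they were Thra (0.886), Cntfr (0.858) and Spats1 (0.854), and for Hsd11b1 they were Efcab1 (0.954), Kcng4 (0.889) and Tom1l1 (0.874). Without the bulb-rich mice, Tsc22d3 kept 1 of its 3 and the 8 other genes kept 0.

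The wider pathway was read from lists, in the main fits only. WT-Veh replicate 1 and WT-Flx replicates 1, 2 and 4 were bulb-rich, and among HT mice only HT-Veh replicate 4 was. Genotype and bulb tissue were therefore not separated in the list results, least of all in HT-Flx against WT-Flx. The share of all genes with a positive difference was not computed, so counts of positive genes stand without it. Of 26 further glucocorticoid-induced genes, 0 passed the adjusted limma threshold in any comparison. At an unadjusted p under 0.05 there were 0 of 25 tested in HT-Veh against WT-Veh, 0 of 26 in WT-Flx against WT-Veh, 1 of 25 in HT-Flx against HT-Veh (Sult1a1, a phenol sulfotransferase, -0.49) and 4 of 25 in HT-Flx against WT-Flx, all lower. The shares of all genes at that level were 4.88%, 4.2%, 3.07% and 10.4% in the same order. The 3 with the smallest p among the 4 were the metallothionein Mt1 (-0.39), the repressor Bcl6 (-0.38) and the transcription factor Cebpd (-0.53). The median log2 difference of the list was 0.0066, 0.044, -0.004 and -0.053 in these 4 comparisons, beside 0.0062, -0.00091, 0.003 and 0.0081 over all genes tested.

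The receptor's chaperones, which hold Nr3c1 in its hormone-binding fold, were all in the table, and 0 of 10 passed the adjusted threshold in any comparison. In WT-Flx against WT-Veh, 9 of the 10 had a positive difference, with a median of 0.099, and Ppid (0.27, limma adjusted p = 0.9997) and Hsp90aa1 (0.22, limma adjusted p = 0.9997) had an unadjusted p under 0.05, as did 4.2% of all genes. Ppid, a cyclophilin-type co-chaperone, was at 2059, 1897, 1892 and 1890 counts in WT-Veh and at 2211, 2456, 2156 and 2493 in WT-Flx. In HT-Flx against WT-Flx, which shares the WT-Flx mice, 0 of the 10 had a positive difference, with a median of -0.15, and Ppp5c (-0.27) and Ppid (-0.22) had an unadjusted p under 0.05, as did 10.4% of all genes. Fkbp4, the co-chaperone that counters Fkbp5, differed by -0.23 in HT-Veh against WT-Veh (limma adjusted p = 0.922). It was the only chaperone at that level there, against 4.88% of all genes. In HT-Flx against HT-Veh there were 0, against 3.07%. Over both treatments 0 of the 10 had a positive difference in HT mice (median -0.11), and Ppp5c (-0.20), Fkbp4 (-0.17) and Ptges3 (-0.11) had an unadjusted p under 0.05, against 11.9% of all genes. For fluoxetine over both genotypes Ppid (0.15) was the only chaperone at that level, against 3.11% of all genes. For the interaction it was also Ppid alone (-0.22), against 4.29%. Both fits include the WT-Veh and WT-Flx mice of the Ppid difference above, so they do not repeat it independently.

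Of the 9 coactivators and corepressors of the receptor, 8 had a positive difference in each genotype comparison, with medians of 0.10 (HT-Veh against WT-Veh) and 0.12 (HT-Flx against WT-Flx), and 0 had an unadjusted p under 0.05 in any comparison of 2 groups. Over both treatments all 9 were positive in HT mice (median 0.11), and Ncoa1, a steroid receptor coactivator, had an unadjusted p under 0.05 (0.18, limma adjusted p = 0.413), as did 11.9% of all genes. In steroid metabolism and export, 5 of 6 listed genes were in the table and 0 passed the adjusted threshold. H6pd, which supplies the NADPH that Hsd11b1 uses, differed by 0.41 in HT-Flx against WT-Flx (limma adjusted p = 0.381). It was at 302, 288, 307 and 247 counts in HT-Flx and at 235, 231, 224 and 173 in WT-Flx. Akr1c14, a hydroxysteroid dehydrogenase that acts on neurosteroids, differed by -0.52 in HT-Veh against WT-Veh (limma adjusted p = 0.922). No other gene of this list had an unadjusted p under 0.05 in a comparison of 2 groups. The share of all genes at that level was 10.4% in HT-Flx against WT-Flx and 4.88% in HT-Veh against WT-Veh.

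Of the CRH ligands and second receptor, Crh and Crhr2 were found in the table by symbol, and the urocortins Ucn, Ucn2 and Ucn3 were not. Crh was at 98.6 ± 45.5 counts in WT-Veh, 107 ± 14.2 in HT-Veh, 82.8 ± 13.4 in WT-Flx and 96.8 ± 8.25 in HT-Flx, with WT-Veh replicate 1 highest at 166, the mouse that also had the most Crhr1. Neither gene had an unadjusted p under 0.05 in any comparison. Of the 4 stress peptide genes in the table (the PACAP gene Adcyap1, its receptor Adcyap1r1, and the vasopressin and oxytocin receptors Avpr1a and Oxtr), 3 were tested. None had an unadjusted p under 0.05 between 2 groups, while over both treatments Oxtr differed by 0.28 in HT mice (limma adjusted p = 0.353) and Adcyap1 by -0.42 (limma adjusted p = 0.391), both at an unadjusted p under 0.05. Over both genotypes Oxtr also reached that level for fluoxetine, with a difference of 0.23 (limma adjusted p = 0.9997). The share of all genes at that level was 11.9% for genotype and 3.11% for fluoxetine.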

How the data were processed

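The mPFC of 16 male mice was profiled by stranded poly(A) RNA sequencing, paired-end on a NovaSeq, from RNA with an integrity number above 7. The authors quantified transcripts with Salmon 1.1.0 on GRCm38, summed them to genes with tximport and normalized with DESeq2 1.30.1, and deposited a signal table of normalized read counts. The values are not whole reads, so read depth is unknown and no count test or counting interval was used. Here 18411 of 18424 identifiers were matched to symbols. Values were taken as log2(value + 1), genes with at least 10 in 4 samples of a fit were kept, and limma 3.58.1 (lmFit, eBayes with trend, R 4.3.3) was run on the whole table with Benjamini-Hochberg adjustment at 0.05. Single genes were tested by two-sided exact permutation of mean log2 differences. Correlations used 100000 permutations of mice within groups (Python 3.11.15). The fits were checked on simulated data. The members and gene lists were chosen with earlier results of these data known. Named were, in each comparison, the members at an unadjusted p under 0.05 or the 1 with the smallest p, up to 3 genes of a further list, and the 3 genes most like each member. Alternatives were other pseudocounts (8 and 0.1), no filter, upper quartile and quantile scaling, all groups in 1 fit, a replicate block, marker score covariates, and leaving out bulb-rich mice (a bulb score over the median by more than 2) or each mouse in turn. Promoters came from RefSeq (GRCm38.p6) and gene models from GENCODE vM21.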

Additional observations from a re-analysis of the deposited data

Results flagged for a closer look

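Of the 36 sets of 4 mice (9 genes in 4 groups), 3 held a mouse whose gap to the nearest of the others, divided by the range of the 4, was above Dixon's critical value. Chance alone flags about 1 in 20 such sets. Nr3c1 in WT-Veh replicate 1 was at 1978 normalized counts against 3132 to 3258 in the other WT-Veh mice, a gap of 0.902 of the range, and this mouse had the highest bulb score of the 16. Fkbp5 in HT-Veh replicate 4, also bulb-rich, was at 1119 against 683 to 730, a gap of 0.891. Sgk1 in HT-Flx replicate 4 was at 2859 against 1446 to 1576, a gap of 0.908, and the same mouse had the most Tsc22d3 of the 16, 2430.

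For 2 genes the fluoxetine difference in HT mice departed from that in WT mice at an unadjusted p under 0.05 in limma. The interaction on the log2 scale was 0.659 for Hsd11b1 and -0.249 for Nr3c2, and both failed the adjustment over 17567 genes (adjusted p = 0.998 each). Over the 4 group means, Hsd11b1 was highest in WT-Veh, and Nr3c2 was highest in HT-Veh.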

How the results depend on the processing

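The 12 named differences kept their direction in each setting run, 128 values with a changed setting and 128 with a mouse left out, and none passed the adjusted threshold in any of them. Genes past the adjusted threshold were few, and their number moved by over 1.5 times as follows. For HT-Veh against WT-Veh (3 genes) it was 0 with all 4 groups in the fit, 0 with the replicate block, 18 with the bulb score as a covariate and 11 without bulb-rich mice. For WT-Flx against WT-Veh (0 genes) it was 1 with the bulb covariate, 9 without bulb-rich mice and 1 with the oligodendrocyte covariate. For HT-Flx against WT-Flx (7 genes) it was 4 with a pseudocount of 0.1, 4 with quantile normalization, 4 with all groups in the fit, 0 with the bulb covariate, 2 without bulb-rich mice, 4 with the striatal and 3 with the oligodendrocyte covariate. Without bulb-rich mice it was 2 for the interaction (0 genes) and 4 for genotype over both treatments (7 genes), which the oligodendrocyte covariate also took to 4. The causes were not tested, except that leaving mice out leaves fewer of them. The striatal and oligodendrocyte covariates were chosen after seeing the data. With each mouse left out in turn, the count ran from 0 to 2, 0 to 4, 0 to 23 and 1 to 13 for HT-Veh against WT-Veh, WT-Flx against WT-Veh, HT-Flx against WT-Flx and genotype, and stayed at 0 for the other 3 comparisons.

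Same-numbered mice of different groups were not treated as pairs, since not every one of them correlated over 0.1. That rule does not show the number to be without effect, and the p-values of the main fits take no account of it. The deviations of same-numbered mice from the group means correlated with a mean r of 0.0561 over 24 pairs, 9 of them over 0.1, against -0.0172 over 72 differently numbered pairs, 8 of them over 0.1. Of the 24, 12 correlated best with their own number, out of 4 numbers. With the replicate block, the Zbtb16 difference in HT-Flx against WT-Flx was 0.61 (limma adjusted p = 0.226, against 0.226 to 1.0 over its 11 alternatives), and no member passed the adjusted threshold in any comparison.

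Read depth is unknown, and 4 mice a group limit the precision: the smallest exact p for 2 groups is 0.0286.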

Other observations

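Mice that share a replicate number in different groups had like levels of some receptor-induced genes. This was seen after the values were examined and was not tested, and the labels do not say what a number stands for (a day, a litter or an order of collection). Sgk1 was at 1199 to 1650 normalized counts in the 4 mice numbered 1 and at 2391 to 2859 in the 4 mice numbered 4, so that these sets did not overlap although each holds 1 mouse of every group. Tsc22d3 was at 1042 to 1571 in the mice numbered 1 and 1888 to 2430 in those numbered 4, again without overlap, and the mouse numbered 4 was the highest of its group in all 4 groups. Zbtb16 was lowest in the mouse numbered 1 in all 4 groups, at 530 to 921. Fkbp5, the remaining receptor-induced member, overlapped, at 633 to 822 in the mice numbered 1 and 764 to 1119 in those numbered 4.

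Some further glucocorticoid-induced genes were like this, and are named for it after their values were seen. How many of the 26 listed genes, or of all genes, separate in this way was not counted. Plin4, which coats lipid droplets, was at 50.1 to 90.0 in the mice numbered 1 and 270 to 379 in those numbered 4. Hif3a, a hypoxia-inducible factor subunit, was at 178 to 335 and 431 to 691. The clock gene Per1, which glucocorticoids also induce, was at 2592 to 2951 in the mice numbered 1 and 3386 to 4244 in those numbered 4. Its highest mean was in the mice numbered 3, at 4123, against 3925 in those numbered 4. Ddit4, of the same list, overlapped, at 540 to 774 in the mice numbered 1 and 706 to 1223 in those numbered 4. Crhr1 overlapped too, at 547 to 974 in the mice numbered 1 and 585 to 769 in those numbered 4.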
